A study of Mus musculus with 2 samples.

Results

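Late G2 and mitotic cells were taken from 2 single-cell RNA libraries of mouse leukaemia cells that carry the MLL-AF9 fusion oncogene and the Cas9 nuclease. One library, called Jumonji here, held cells with a guide RNA (sgRNA) to the Jumonji domain of Jmjd1c, and the other, the control, called Renilla here, held cells with a guide to Renilla luciferase. Both cultures grew in RPMI with 10% FBS and 10 ng/ml mouse interleukin-3 (IL-3), and both carried MLL-AF9 and Cas9, so neither is a model of normal marrow. Values are counts of unique molecular identifiers (UMIs, tags that mark single RNA molecules), read from the 3′ end of polyadenylated RNA. With 1 library per condition no test between the conditions could be made, and every interval below covers counting error only, not the spread between cultures or guides.

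Members were chosen by measured values. Of 652 Jumonji and 651 Renilla barcodes, cells were kept if they showed 500 genes or more and no more than 10% of their UMIs were mitochondrial, which left 575 Jumonji and 608 Renilla cells. Each cell was scored by the share of its UMIs that fell in 8 genes (Ccnb1, Cdc20, Cenpf, Cenpe, Ube2c, Aspm, Nusap1 and Sapcd2), and the top 20% of each library were called members. This gave 115 Jumonji and 121 Renilla members, 236 of 1183 kept cells in all, and left 460 other Jumonji cells and 487 other Renilla cells. No barcode was shared between the libraries.

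A dividing cell copies its DNA in S phase, passes through G2 and then separates the copies in mitosis. Cyclin B with its kinase Cdk1, and the Polo and Aurora kinases, drive entry into mitosis, while the spindle, the kinetochores and the condensins handle the chromosomes. The anaphase-promoting complex (APC/C) then marks cyclin B and other proteins for destruction. Many of these genes are transcribed late in the cycle through a promoter element, the cell cycle genes homology region (CHR), which the DREAM and MuvB complexes bind, and this late wave is known from many cycling mammalian cells.

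The score declined gradually, with no gap at the limit. In Jumonji the last member had a score of 757.6 CPM (counts for every 1000000 UMIs) and the first cell outside had 754.4. In Renilla the last member had 912.5 and the first cell outside had 909.0. Within 10% of the limit lay 10 members and 14 other cells of Jumonji, and 11 members and 14 other cells of Renilla, so the members are the upper range of a continuous score.

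**Figure D1:**
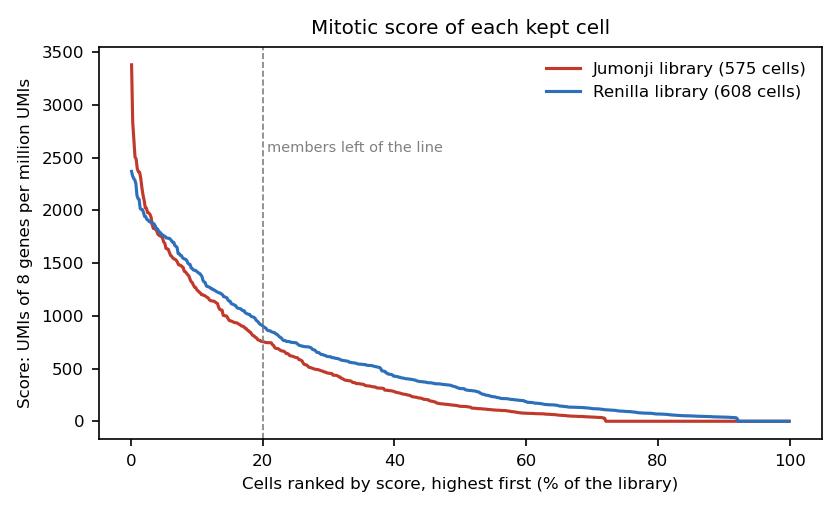
Score (CPM of the 8 genes, y axis) of each kept cell, ranked from highest to lowest (x axis, % of the library), with Jumonji in red and Renilla in blue. Cells left of the dashed line are the 115 Jumonji and 121 Renilla members, and the Renilla curve runs above the Jumonji curve at the limit.

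The other cells of the libraries differed in how much of the score they held. The median score was 1246 CPM in Jumonji members and 75.6 in other Jumonji cells, against 1422 in Renilla members and 187 in other Renilla cells. A score of 0 was found in 161 of the other Jumonji cells and in 48 of the other Renilla cells. Members were also deeper: the median was 28161 UMIs in Jumonji members and 20766 in other Jumonji cells, and 29415 in Renilla members and 22382 in other Renilla cells. The part of depth in the contrasts below was not tested, but they were repeated with cells thinned to 10000 UMIs. That alternative left out 55 Jumonji and 29 Renilla cells of lower depth and chose the members again (104 Jumonji and 115 Renilla cells). Median mitochondrial shares were 2.46% in Jumonji members and 2.68% in other Jumonji cells, and 3.22% in Renilla members and 3.46% in other Renilla cells. The doublet caller Scrublet marked 1 member of each library, 3 other Jumonji cells and 9 other Renilla cells, all of which were kept. At a single limit for both libraries (843.0 CPM) the share of cells above it was 18.3% in Jumonji (105 of 575, exact binomial 95% interval 15.2 to 21.7%) and 21.5% in Renilla (131 of 608, interval 18.3 to 25.03%). These intervals overlap.

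The 5 genes that define the label (Ccnb1, Cdc20, Cenpf, Ube2c and Aspm) were all present in members, which the rule itself brings about. Ube2c, the E2 enzyme that works with the APC/C, made up 44.4% of the score UMIs of Jumonji members and 42.2% of those of Renilla members, with a median of 15 UMIs per Jumonji member (0 to 56) and 18 per Renilla member (1 to 42). Ccnb1, which encodes cyclin B1, had a median of 5 UMIs per Jumonji member (0 to 19) and 6 per Renilla member (0 to 27). Cdc20, the APC/C activator of mid mitosis, was detected in 100 of 115 Jumonji members and 116 of 121 Renilla members. Aspm, a spindle-pole protein, was sparse and was detected in 55 Jumonji members and 62 Renilla members. The score thus leaned on Ube2c and did not weigh the 8 genes evenly.

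Values of the 8 genes that did not choose the cells were also read. When each cell's UMIs were split at random into 2 equal sets and 1 set chose the members, 103 of the 115 Jumonji members and 109 of the 121 Renilla members were chosen again. That set is part of the UMIs behind the main choice, so this overlap is partly built in. In the unused UMIs the log2 ratio of Ube2c, members over other cells, was 3.09 in Jumonji and 2.49 in Renilla, and that of Ccnb1 was 2.58 and 2.25 in the same order of libraries. When members were chosen by 60 other G2 and mitotic genes instead, 85 Jumonji members (73.9%) and 80 Renilla members (66.1%) were shared with the main choice. Cenpf, a kinetochore protein that accumulates in G2, then had a log2 ratio of 2.64 in Jumonji and 2.08 in Renilla. None of the members was among the 115 Jumonji or 121 Renilla cells highest in the replication list described below.

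Markers of other cell types were read in the same cells. Lymphoid markers were near 0, with summed levels of 0.309 CPM in Jumonji members and 1.57 CPM in other Jumonji cells. In Renilla members they were 1.69 CPM and in other Renilla cells 2.67 CPM. The list has 14 genes, of which 13 were in the count data and none had 100 UMIs. Erythroid sums were 53.5 CPM in Jumonji members and 45.96 CPM in other Jumonji cells, and 55.9 and 59.7 CPM in Renilla members and other Renilla cells. Summed megakaryocyte markers (8 genes) were 19.8 CPM in Jumonji members and 21.6 CPM in other Jumonji cells, and 4.78 and 8.75 CPM in Renilla members and other Renilla cells. Eosinophil markers (10 genes) were 79.1 and 83.8 CPM in Jumonji members and other Jumonji cells, and 27.3 and 38.0 CPM in Renilla members and other Renilla cells. Both of these sums were higher in Jumonji than in Renilla at either score. Stromal markers (12 genes) were 23.8 and 25.7 CPM in Jumonji members and other Jumonji cells, and 15.7 and 18.1 CPM in Renilla members and other Renilla cells. Mast cell and basophil markers (12 genes) were 123 CPM in Jumonji members and 192 CPM in other Jumonji cells. In Renilla members and other Renilla cells they were 147 and 157 CPM. For this list the gap between members and other cells was thus larger in Jumonji than in Renilla. Summed neutrophil markers were 3246 CPM in Jumonji members and 2717 CPM in other Jumonji cells, against 1045 and 969 CPM in Renilla members and other Renilla cells. A single Renilla member held 764 of the 3717 neutrophil UMIs of its group. Without the cell of the largest neutrophil share in each cell group, the sums were 3100 CPM in Jumonji members and 2680 CPM in other Jumonji cells, and 834 and 944 CPM in Renilla members and other Renilla cells, so the order within Renilla turned. Summed monocyte and macrophage markers were 1422 and 1871 CPM in Jumonji members and other Jumonji cells, and 556 and 601 CPM in Renilla members and other Renilla cells. In the neutrophil and monocyte lists the gap between libraries was larger than that between members and other cells, and the part of these cells in the results below was not tested.

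Jmjd1c (chr10:67096125-67256326, plus strand, mm10 in GENCODE M21), the targeted gene, encodes a Jumonji-domain protein of the histone demethylase family. It had 111 CPM in Jumonji members and 112 CPM in other Jumonji cells, and 137 CPM in Renilla members and 141 CPM in other Renilla cells. Its log2 ratio, Jumonji over Renilla, was -0.31 in members (-0.51 to -0.11) and -0.33 in other cells (-0.45 to -0.22). The level was thus somewhat lower in Jumonji cells at either score, and counts at the 3′ end do not check whether the domain was cut.

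Against the other cells of their own library, members held more transcript of mitotic kinases, spindle motors and cytokinesis proteins, and less of the genes of G1/S and DNA replication. A gene was counted as higher or lower when CPM of the summed UMIs differed at least 1.5-fold with at least 100 UMIs over the cells compared. In Jumonji 345 of 7419 measured genes were higher (4.65%) and 303 were lower (4.08%). In Renilla 381 of 7683 were higher (4.96%) and 267 were lower (3.48%). With median ratio scaling in place of CPM the split was 304 higher and 342 lower in Jumonji, and 301 higher and 317 lower in Renilla, so the balance of directions depends on the scaling in both libraries. The median log2 ratio over all measured genes was 0.04 in Jumonji and 0.05 in Renilla. Because the cells were chosen on the same counts, all of this contrast is a description.

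Of 7129 genes measured in both libraries, 334 were higher in Jumonji members and 298 in Renilla members. Higher in both were 153, which is 45.8% of the 334 and 51.3% of the 298. Another 96 were lower in both, 40.7% of the 236 lower in Jumonji and 39.8% of the 241 lower in Renilla. Msantd4 alone passed the fold in opposite directions. Of the 153 genes, 82 stood in the mitotic lists and 66 in no list used here. The 82 include score genes, which are higher by the member rule. Of the 96 genes, 28 stood in the replication list, which has 54 genes in all, and 63 in none. The share of the mitotic lists over all 7129 genes was not counted.

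The kinases and phosphatases of mitotic entry were among the highest of the genes outside the score. Plk1, the Polo kinase of centrosomes and kinetochores, had 63.0 CPM in Jumonji members and 8.98 CPM in other Jumonji cells, and 63.8 CPM in Renilla members and 14.8 CPM in other Renilla cells. Its log2 ratio was 2.81 in Jumonji (95% interval 2.44 to 3.19) and 2.11 in Renilla (1.81 to 2.41). Cdc25b, a phosphatase that activates Cdk1, had 30.6 CPM in Jumonji members and 4.39 CPM in other Jumonji cells, and 18.5 CPM in Renilla members and 3.50 CPM in other Renilla cells. Both genes were thus several-fold higher in members of either library, and Plk1 had nearly the same level in both member groups. Aurka, the Aurora kinase of spindle poles, had log2 ratios of 1.93 in Jumonji and 1.69 in Renilla, and Cdc25c, a second Cdk1 phosphatase, 2.18 and 1.94. Of the 24 measured genes of the list of mitotic kinases and cyclins, 16 were at least 1.5-fold higher in Jumonji (median log2 ratio 1.07) and 14 in Renilla (median 0.75), and none was lower. Wee1, the kinase that holds Cdk1 inactive, had log2 ratios of -0.29 (-0.91 to 0.30) and 0.00 (-0.59 to 0.55).

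Spindle motors and cytokinesis genes had the largest medians of the mitotic lists. Of 30 measured kinesin and spindle genes 24 were higher in Jumonji (median 1.51), and of 31 in Renilla 23 were higher (median 1.24). Kif2c, a microtubule-depolymerizing kinesin of the centromere, had 32.4 CPM in Jumonji members and 6.999 CPM in other Jumonji cells, and 41.3 CPM in Renilla members and 11.4 CPM in other Renilla cells. Hmmr, a spindle-binding protein, had log2 ratios of 2.15 and 1.80, and Kpna2, a nuclear import receptor, had 2.13 and 1.68. Tpx2, which brings Aurora A to the spindle, had 1.79 and 1.46. For cytokinesis 13 of 15 genes were higher in Jumonji (median 1.48) and 12 of 15 in Renilla (median 0.95). Kif23, a motor of the central spindle, had the highest ratio of the named ones, with 28.7 CPM in Jumonji members and 6.48 CPM in other Jumonji cells, and 27.8 CPM in Renilla members and 8.93 CPM in other Renilla cells. Rhoa, the GTPase of the contractile ring that also serves interphase cells, had 283 CPM in Jumonji members and 284 CPM in other Jumonji cells.

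The spindle checkpoint, which holds anaphase until chromosomes are attached, showed 11 of 14 genes higher in each library, with medians of 1.02 in Jumonji and 0.78 in Renilla. Bub1, a checkpoint kinase, had 47.0 CPM in Jumonji members and 16.5 CPM in other Jumonji cells, and 36.0 CPM in Renilla members and 21.9 CPM in other Renilla cells. Birc5 (survivin) of the chromosomal passenger complex had log2 ratios of 1.49 in Jumonji and 1.03 in Renilla. Kinetochore genes were split: 19 of 33 were higher in Jumonji (median 0.76), and 12 of 34 were higher and 1 lower in Renilla (median 0.38). Cenpa, the centromeric histone H3 variant, had 370 CPM in Jumonji members and 102 CPM in other Jumonji cells, and 389 CPM in Renilla members and 125 CPM in other Renilla cells. Cenpt and Ndc80, of the inner and outer kinetochore, were higher in Jumonji members (log2 ratios 1.16 and 0.85) but had -0.15 (-0.64 to 0.32) and 0.09 (-0.38 to 0.53) in Renilla.

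APC/C genes and those of chromosome structure had the smallest medians of the mitotic lists. Of the APC/C list, higher in members were 4 of 20 in Jumonji (median 0.26) and 4 of 21 in Renilla, where 1 was lower (median 0.22). Those past the fold included Fzr1, the APC/C activator of mitotic exit and G1, with log2 ratios of 1.52 in Jumonji and 1.46 in Renilla, and Pttg1 (securin), a substrate that guards the cohesin protease, with 1.06 and 0.74. Fbxo5, an APC/C inhibitor, had -0.06 in Jumonji (-0.34 to 0.21) and was lower in Renilla at -0.63 (-0.97 to -0.30). Of 28 genes for condensin and chromosome structure 10 were higher in Jumonji (median 0.39), and 5 were higher and 1 lower in Renilla (median 0.17). Top2a, the topoisomerase that untangles sister DNA, had 511 CPM in Jumonji members and 201 CPM in other Jumonji cells, and 377 CPM in Renilla members and 229 CPM in other Renilla cells.

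The genes in no list also included cell cycle genes. Cdkn3, a phosphatase that acts on Cdk proteins, had log2 ratios of 1.81 in Jumonji and 1.77 in Renilla. Prr11 had 2.32 and 1.72, and Gas2l3, a protein that links actin and microtubules, had 2.37 and 1.72. These 3 genes differed about as much as the named spindle genes.

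Genes of G1/S and replication stood among the lower genes, though most genes lower in both libraries were in no list. Ung, the uracil glycosylase that clears uracil from new DNA, had 2.16 CPM (7 UMIs) in Jumonji members and 39.3 CPM in other Jumonji cells, and 3.65 CPM (13 UMIs) in Renilla members and 63.6 CPM in other Renilla cells. Its log2 ratio was -4.18 (-5.51 to -3.13) in Jumonji and -4.12 (-5.04 to -3.34) in Renilla. Ccne1 and Ccne2, the E cyclins of S phase entry, had log2 ratios of -3.20 and -3.19 in Jumonji, and -2.93 and -3.57 in Renilla. Mcm4, a subunit of the replicative helicase, had -1.74 in Jumonji and -1.60 in Renilla. Of the replication list 30 of 53 genes were lower in Jumonji (median -0.67) and 40 of 54 in Renilla (median -0.85), and none was higher. Outside the lists, Tcf19 had -2.01 and -2.69. Hist1h2bc, a histone H2B gene with near-identical copies that may share its reads, had -1.86 and -1.98. Most histone mRNAs of S phase lack poly(A) tails, so a kit that reads polyadenylated RNA counts them in part only.

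**Figure D2:**
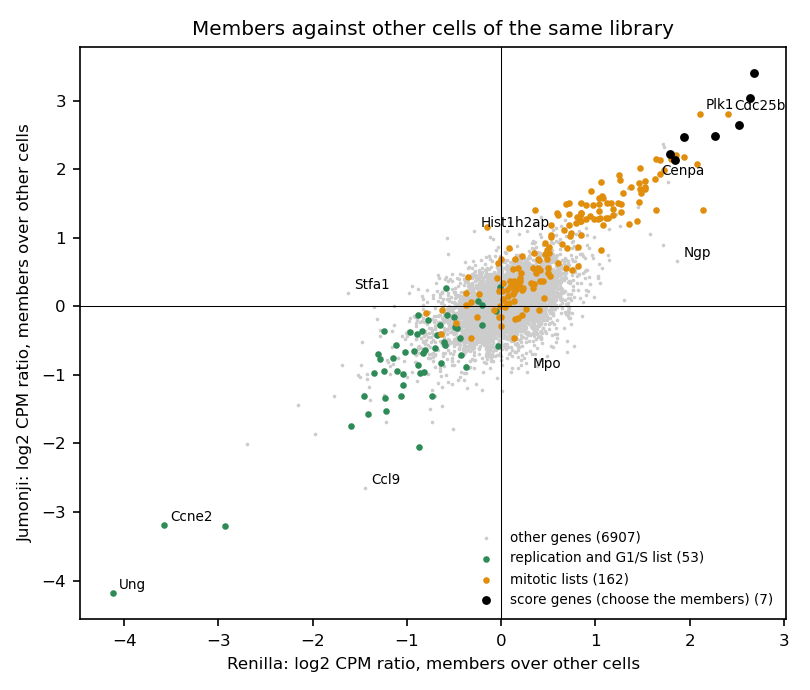
Log2 CPM ratio of members over other cells in Jumonji (y axis) and in Renilla (x axis) for the 7129 genes measured in both, each point 1 gene. Mitotic genes (orange) and the score genes (black) lie mostly at the upper right and replication genes (green) at the lower left, with Ung lowest in both libraries.

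Several lists not tied to division had medians near that of all genes. In Jumonji the medians were 0.00 for IL-3 receptor and STAT5 genes (none of 15 past the fold), 0.02 for the MLL-AF9 programme (2 of 23 higher, 1 lower), -0.02 for glycolysis (1 of 15 higher) and -0.06 for heat shock (none of 19). In Renilla the same lists had medians of 0.05 (none of 11), 0.00 (2 of 22 higher, 1 lower), -0.01 (none of 15) and 0.03 (none of 19). Ribosome biogenesis genes had medians of 0.19 in Jumonji (2 of 21 higher) and 0.27 in Renilla (3 of 22 higher). G1 cyclins and inhibitors had medians of -0.11 in Jumonji (1 of 19 higher, 2 lower) and -0.08 in Renilla (3 of 19 lower). Bcl2, the anti-apoptotic gene, was higher in members of both, with log2 ratios of 0.67 in Jumonji and 0.68 in Renilla.

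The CHR element was searched in the promoters of the genes higher in both libraries. RefSeq windows of 300 bases (250 before to 50 after each gene's start, build GRCm38.p6, 1 per gene) were matched by symbol for 122 of the 153 higher genes, 73 of the 96 lower genes and 5551 of the 7129 measured genes. The motifs were TTTGAA and TTCGAA for the CHR, and CCAAT for the CCAAT box that the NF-Y factor binds, each on both strands (so TTCAAA and ATTGG count too). Matches may overlap each other. Windows of genes on which the results turn are shown with motif matches in capitals, 5′ to 3′ on the gene's strand.
Cdc20: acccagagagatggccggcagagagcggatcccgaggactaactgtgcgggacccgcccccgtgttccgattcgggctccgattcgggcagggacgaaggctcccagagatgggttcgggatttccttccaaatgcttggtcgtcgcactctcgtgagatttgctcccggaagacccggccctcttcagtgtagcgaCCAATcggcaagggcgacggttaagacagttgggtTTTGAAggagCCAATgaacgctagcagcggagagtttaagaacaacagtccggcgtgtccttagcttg
Cenpf: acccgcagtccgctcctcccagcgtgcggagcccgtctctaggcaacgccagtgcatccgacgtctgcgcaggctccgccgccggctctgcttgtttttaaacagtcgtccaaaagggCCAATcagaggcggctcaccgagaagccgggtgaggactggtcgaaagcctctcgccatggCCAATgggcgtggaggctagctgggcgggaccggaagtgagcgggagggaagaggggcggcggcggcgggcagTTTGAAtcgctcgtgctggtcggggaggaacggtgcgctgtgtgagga
Ube2c: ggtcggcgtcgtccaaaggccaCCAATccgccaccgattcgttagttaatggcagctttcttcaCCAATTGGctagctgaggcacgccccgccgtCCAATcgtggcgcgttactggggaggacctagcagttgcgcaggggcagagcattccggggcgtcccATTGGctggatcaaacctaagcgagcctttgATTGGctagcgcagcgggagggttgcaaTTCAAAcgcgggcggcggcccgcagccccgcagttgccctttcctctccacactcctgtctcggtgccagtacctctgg
Plk1: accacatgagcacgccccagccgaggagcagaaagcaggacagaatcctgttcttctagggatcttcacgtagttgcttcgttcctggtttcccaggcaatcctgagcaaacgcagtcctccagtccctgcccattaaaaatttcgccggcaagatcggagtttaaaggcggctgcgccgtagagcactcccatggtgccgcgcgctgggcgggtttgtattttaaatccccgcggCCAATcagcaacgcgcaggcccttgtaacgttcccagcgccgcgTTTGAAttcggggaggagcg
Cdk1: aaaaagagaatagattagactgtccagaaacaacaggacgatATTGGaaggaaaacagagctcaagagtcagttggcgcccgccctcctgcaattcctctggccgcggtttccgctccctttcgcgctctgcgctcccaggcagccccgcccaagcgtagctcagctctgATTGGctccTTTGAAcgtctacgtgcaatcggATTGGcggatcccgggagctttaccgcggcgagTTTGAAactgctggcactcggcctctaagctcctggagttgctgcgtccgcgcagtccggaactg
Ccnb1: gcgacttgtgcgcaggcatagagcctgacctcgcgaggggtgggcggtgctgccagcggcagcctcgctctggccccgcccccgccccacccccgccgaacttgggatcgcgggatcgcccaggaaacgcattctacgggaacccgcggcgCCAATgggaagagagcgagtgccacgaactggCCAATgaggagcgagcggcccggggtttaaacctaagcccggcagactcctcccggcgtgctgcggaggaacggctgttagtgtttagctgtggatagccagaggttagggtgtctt
Ung: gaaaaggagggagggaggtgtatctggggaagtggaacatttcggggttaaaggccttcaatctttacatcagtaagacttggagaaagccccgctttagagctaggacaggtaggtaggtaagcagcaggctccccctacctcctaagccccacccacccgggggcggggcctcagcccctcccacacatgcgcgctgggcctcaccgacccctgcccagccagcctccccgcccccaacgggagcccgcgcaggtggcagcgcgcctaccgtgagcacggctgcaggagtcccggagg
The Cdc20 window lies at chr4:118437294-118437593 (minus strand), that of Cenpf at chr1:189688037-189688336 (minus), Ube2c at chr2:164769679-164769978 (plus), Plk1 at chr7:122159185-122159484 (plus), Cdk1 at chr10:69352863-69353162 (minus), Ccnb1 at chr13:100786437-100786736 (minus) and Ung at chr5:114130185-114130484 (plus). Position 0 is the first of the 50 bases after the start. The CHR match begins at position -18 in Cdc20, 2 in Cenpf, -29 in Ube2c, 30 in Plk1, and -71 and -15 in Cdk1. Ccnb1 has 2 CCAAT matches and no CHR letters in this window, and Ung, the lowest gene in members, has neither motif. Of the 8 score genes 4 have a CHR match in the window (Cdc20, Cenpf, Ube2c and Aspm) and 4 have none (Ccnb1, Cenpe, Nusap1 and Sapcd2), and Nusap1 and Sapcd2 have no CCAAT match either. No match says only that these letters are not in the window.

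Within 50 bases of the start a CHR match stood in 58 of the 122 higher genes (47.5%) and in 16 of 51 higher genes that were in no list (31.4%). The 122 include score genes, which are higher by the member rule, among them Cdc20, Cenpf, Ube2c and Aspm with such a match. The 51 genes in no list leave the score genes out. It stood in 2 of 73 lower genes (2.74%), in 216 of 5551 measured genes (3.89%) and in 5.29% of all 27025 promoter windows. Over the whole window the shares were 57.4% of the higher, 11.0% of the lower and 14.2% of the measured genes, and 19.4% of all windows. A CCAAT match anywhere stood in 67.2% of the higher, 54.8% of the lower and 39.6% of the measured genes, and in 37.9% of all windows. The share with the CHR letters was thus larger among the higher genes. CCAAT letters were more common in both the higher and the lower genes than in the measured genes, and most common in the higher. These are shares of genes chosen by their counts and carry no test, and a match is not a shown binding site.

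**Figure D3:**
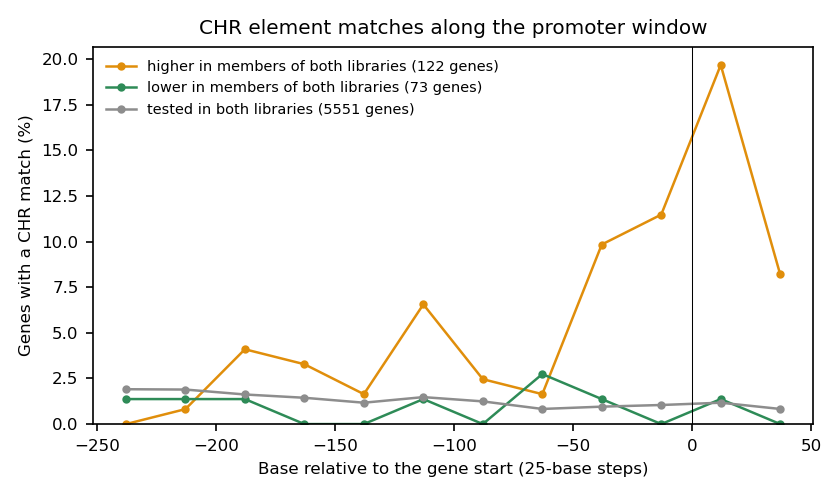
Share of genes with a CHR match (y axis, %) in steps of 25 bases along the promoter window (x axis, bases relative to the gene start) for genes higher in members of both libraries (orange, 122 genes), lower in both (green, 73 genes) and all measured genes (grey, 5551 genes). The orange line is highest at 19.7% in the step that begins at the start, where the grey line is at 1.17%.

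The libraries were then compared within members and within other cells. Members were chosen by mitotic genes in each library, so the rule bears on their mitotic levels here. Over 5890 genes with at least 100 UMIs in the members of both libraries together, 570 were at least 1.5-fold higher in Jumonji members than in Renilla members (9.68%) and 545 were lower (9.25%), with a median log2 ratio of -0.04. Median ratio scaling gave 634 higher and 461 lower. Among the other cells 826 of 8419 genes were higher in Jumonji (9.81%) and 631 were lower (7.49%), with a median of -0.05, and median ratio scaling gave 934 higher and 484 lower. In members the medians of the mitotic lists, Jumonji over Renilla, were 0.12 for kinases and cyclins, 0.16 for the checkpoint, 0.03 for kinetochores, 0.15 for kinesins, 0.18 for cytokinesis, 0.04 for the APC/C and 0.19 for condensins. In the other cells the same lists had medians of -0.15, -0.06, -0.25, -0.16, -0.29, -0.08 and -0.10 in that order. With median ratio scaling these signs held for all 7 lists. With thinned cells the checkpoint list in other cells turned to 0.058. The APC/C list in members kept its sign in 12 of 15 alternatives and was lowest at -0.03 with the top 30% as members.

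Within the mitotic lists a few genes stood apart between member groups. Cdk1, the kinase that cyclin B activates, had 247 CPM in Jumonji members and 163 CPM in Renilla members (log2 ratio 0.60, 0.45 to 0.76), against 82.8 CPM and 79.0 CPM in the other cells. Bub1b, the checkpoint protein BubR1, had 29.97 CPM in Jumonji members and 47.5 CPM in Renilla members (-0.66, -1.04 to -0.30). Hmgb2, an abundant chromatin protein, had 2701 CPM in Jumonji members and 1757 CPM in Renilla members (0.62, 0.57 to 0.67), and in other cells 1537 and 1254 CPM. Of the score genes, Nusap1 had 150 CPM in Jumonji members and 101 CPM in Renilla members, and Sapcd2 had 20.1 and 36.3 CPM in the same order.

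Several primary granule genes of promyelocytes were lower in Jumonji members. Mpo (chr11:87793581-87804413, plus strand, mm10 in GENCODE M21), which encodes myeloperoxidase, had 40.2 CPM in Jumonji members and 697 CPM in Renilla members, a log2 ratio of -4.12 (-4.38 to -3.86). In Jumonji members 1 cell held 24.6% of the 130 Mpo UMIs and only 20 of 115 cells had any, whereas 116 of 121 Renilla members had some. Ctsg (cathepsin G) had 67.7 CPM in Jumonji members and 564 CPM in Renilla members (-3.06, -3.27 to -2.86). Ms4a3, a marker of granulocyte and monocyte progenitors, had 169 CPM and 607 CPM (-1.84). Elane and Prtn3, which encode neutrophil elastase and proteinase 3, had -1.02 and -1.17. The list was mixed: of 12 genes 5 were lower and 3 (Cst7, Ctsc and Igsf6) were higher, with a median of -0.33, and its summed level was 6136 CPM in Jumonji members and 9435 CPM in Renilla members. In the other cells 5 of 12 were also lower and 3 higher, with a median of -0.10.

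Most neutrophil and monocyte genes were higher in Jumonji members. Of 9 measured neutrophil genes 7 were higher and 1, Camp, was lower (median 1.74), and the monocyte and macrophage list had 8 of its 10 higher and 1 lower (median 1.08). Both lists ran the same way in the other cells. There 10 of 14 neutrophil genes were higher and 0 lower (median 1.63), and 11 of 14 monocyte genes were higher and 1 lower (median 1.33). S100a8, a calcium-binding protein of neutrophils, had 717 CPM in Jumonji members and 84.0 CPM in Renilla members (log2 ratio 3.09, 2.92 to 3.27). S100a9, its partner, had 443 CPM and 68.8 CPM (2.68, 2.49 to 2.89). A single Renilla member held most of the Renilla signal of this group: 171 of 299 S100a8 UMIs, 210 of 245 S100a9 UMIs, 163 of 169 Camp UMIs and 160 of 165 Ngp UMIs. Camp encodes the antimicrobial cathelicidin and Ngp a protein of secondary granules. That cell had 18547 UMIs, 4.12% of them in neutrophil genes, and was not marked as a doublet. Without the cell of the largest neutrophil share in each cell group, the Jumonji over Renilla ratio in members was 4.21 for S100a8, 5.23 for S100a9 and 5.25 for Ngp, and that of Camp turned to 1.36, against -3.46 with the cell.

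In Jumonji members the top cell for each gene held 14.0% of the S100a8 and 16.7% of the S100a9 UMIs, and for the monocyte genes 7.46% of Wfdc17, 10.3% of Ctss and 6.85% of Lgals3 UMIs. In Renilla members the top cell held 16.7% of the Wfdc17, 37.5% of the 8 Ctss and 6.40% of the Lgals3 UMIs. Wfdc17, a secreted protease-inhibitor-like protein, had 145 CPM (469 UMIs) in Jumonji members and 5.06 CPM (18 UMIs) in Renilla members, a log2 ratio of 4.84 (4.16 to 5.61). Ctss (cathepsin S) had 33.1 CPM in Jumonji members and 2.25 CPM in Renilla members (3.88, 2.85 to 5.13). Lgals3 (galectin-3) had 311 CPM and 35.1 CPM (3.15, 2.88 to 3.43). Ccr2, the chemokine receptor of monocytes, ran the other way with 7.41 CPM in Jumonji members and 31.2 CPM in Renilla members (-2.07, -2.77 to -1.43). S100a6, another calcium-binding protein, had 135 UMIs in Jumonji members and 0 in Renilla members. A single Jumonji member held 50 of those 135 UMIs. The log2 ratio of S100a6, with Renilla members set to a floor of 3 counts, was 5.63, which is no lower bound. Over the alternatives this ratio ran from 4.02 to 7.22. Among the genes with the highest ratios were Pira2, Pirb and Lilrb4a, receptors of a family with near-identical copies whose reads may be split between them.

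Some IL-3 signalling genes were higher too. Of 9 measured genes of the IL-3 receptor and STAT5 list 4 were higher and none lower, with a median of 0.56. In the other cells 6 of 15 were higher and none lower, with a median of 0.44. Csf2rb, a beta chain that several cytokine receptors, that of GM-CSF among them, have in common, had 131 CPM in Jumonji members and 32.6 CPM in Renilla members (2.01, 1.71 to 2.32). Its neighbour Csf2rb2, the mouse beta chain that serves IL-3, had 71 and 12 UMIs, too few for the call, and the paralogs are similar enough to share reads. Cish, a feedback inhibitor induced by STAT5, had 71.7 CPM and 28.1 CPM (1.35, 1.01 to 1.70). Cd34, a progenitor surface protein, had 549 CPM and 355 CPM (0.63, 0.52 to 0.73). The stem and progenitor list as a whole was mixed. Of its 8 measured genes 3 were higher and 2 lower in Jumonji members, with 4 above 0 and 4 below (median -0.0004). In the other cells 4 of 11 were higher and 1 lower (median 0.31).

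The leukaemia programme differed little. Of 21 measured MLL-AF9 programme genes 1 was higher and 2 were lower (median -0.14). Hoxa9, a homeobox gene sustained by MLL fusions, had 171 CPM in Jumonji members and 211 CPM in Renilla members (-0.30, -0.46 to -0.14), and Meis1, its cofactor, had 93.0 and 105 CPM (-0.17, -0.40 to 0.05). Cebpa, a transcription factor of granulocyte fate, was one of the lower genes with 10.8 CPM and 35.4 CPM (-1.71, -2.30 to -1.16).

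Ribosome biogenesis genes were lower in Jumonji members, 8 of 21 past the fold, none higher and all 21 below 0 (median -0.50). Ncl (nucleolin) had 425 CPM in Jumonji members and 721 CPM in Renilla members, and Wdr12, a factor of large-subunit assembly, had 104 and 180 CPM. Heat shock genes were also below 0 in all 18 measured (median -0.29, 4 past the fold), including the mitochondrial chaperone pair Hspd1 and Hspe1 (-0.73 and -0.77). In the other cells both lists ran the same way, with medians of -0.48 and -0.24.

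**Figure D4:**
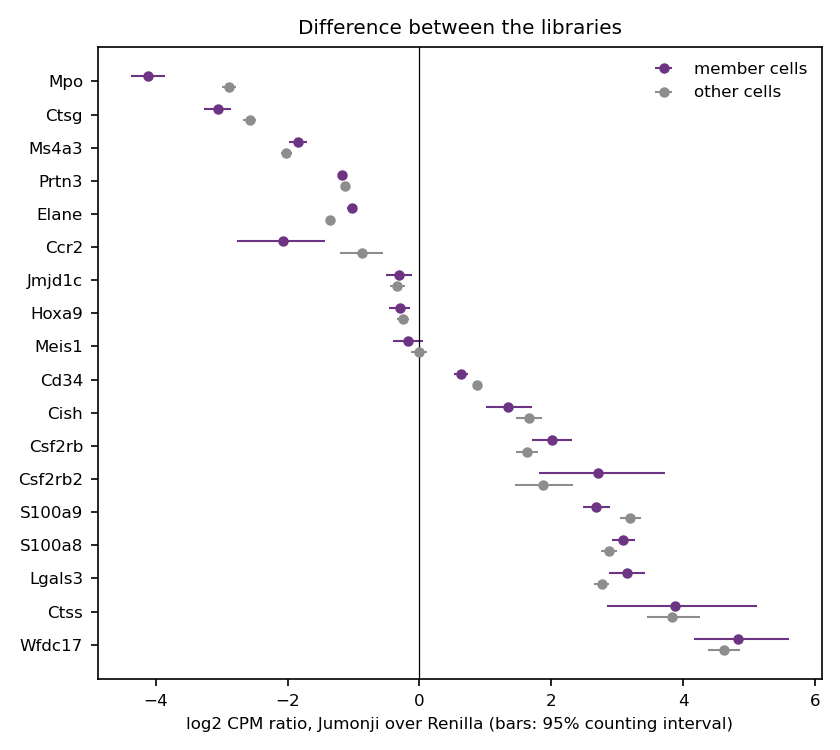
Log2 CPM ratio, Jumonji over Renilla (x axis), of 18 genes, in member cells (purple) and in other cells (grey), with 95% counting intervals as bars. The 2 cell groups lie close together for most genes, and Mpo is lower in members (-4.12) than in other cells (-2.89).

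For some genes the gap between libraries was of another size in members than in other cells. The difference of the log2 ratios (members minus other cells) carries a counting interval only. Mpo had -1.23 (-1.50 to -0.95) and Ctsg -0.48 (-0.71 to -0.26), so the Jumonji level lay further below the Renilla level in members, while Elane had 0.33 (0.25 to 0.41, but -0.07 with the top 10% as members) and Prtn3 -0.04 (-0.12 to 0.04). Hells, a chromatin remodeller of replicating cells, had -1.18 (-1.59 to -0.77): it had 22.9 CPM in Jumonji members and 94.96 CPM in other Jumonji cells, and 51.1 CPM in Renilla members and 93.7 CPM in other Renilla cells. On the other side stood Top2a at 0.62 (0.49 to 0.76), the tubulin gene Tubb5 at 0.59 (0.51 to 0.67), Cenpt at 1.31 (0.70 to 1.92), and the replication-linked 2810417H13Rik at 0.73 (0.63 to 0.83). Hist1h2ap, a histone H2A gene with near-identical copies, had 1.38 (1.12 to 1.64), with 148 CPM in Jumonji members and 69.5 CPM in other Jumonji cells, and 71.7 CPM in Renilla members and 87.4 CPM in other Renilla cells. When the 60 other genes chose the members, the difference for Hist1h2ap was 0.73. Stfa1, a stefin gene with close copies, had 1.82 (1.57 to 2.07), but 0.04 when the 60 other genes chose the members, and 1 Renilla member held 30.8% of its 172 UMIs there.

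The levels were then followed over 5 bins of equal size, from the lowest score to the members. Bin 1 of Jumonji held 115 cells of score 0, and bin 2 another 46, divided from bin 1 by file order, so those 2 bins are not ordered for them. Bin 1 of Renilla held 48 such cells. Median depth was 14562, 18264, 24015, 24477 and 28161 UMIs over the Jumonji bins and 20830, 23357, 22812, 22850 and 29415 UMIs over the Renilla bins.

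Mitotic and replication genes peaked in different bins. Cenpa had 23.9, 37.5, 100.1, 206 and 370 CPM over the Jumonji bins and 54.1, 72.4, 130.2, 235 and 389 CPM over the Renilla bins. Ung had 53.03, 51.5, 49.7, 10.9 and 2.16 CPM over the Jumonji bins and 103, 97.6, 43.2, 14.3 and 3.65 CPM over the Renilla bins. Cenpa was thus highest and Ung lowest in the members of either library, and Ung in Jumonji differed little over bins 1 to 3. The summed replication list was highest in bin 3 of Jumonji, with 3227, 4324, 5270, 4504 and 2828 CPM, and in bin 2 of Renilla, with 4699, 5764, 5131, 4038 and 2786 CPM. Hist1h2ap was highest in the members of Jumonji, with 10.6, 23.96, 85.7, 129 and 148 CPM, whereas in Renilla it was highest in bins 3 and 4, with 22.7, 62.1, 131, 129 and 71.7 CPM.

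The myeloid genes did not follow 1 order. Mpo in Jumonji had 12.7, 90.4, 92.5, 98.0 and 40.2 CPM, low at both ends, and in Renilla 542, 585, 510, 666 and 697 CPM. Ctss in Jumonji had 141, 119, 40.6, 28.9 and 33.1 CPM, and in Renilla 13.9, 4.26, 2.25, 1.40 and 2.25 CPM. Wfdc17 in Jumonji had 735, 461, 130, 135 and 145 CPM, and in Renilla 37.0, 8.17, 4.13, 6.28 and 5.06 CPM. Ctss and Wfdc17 were thus highest in bin 1 of either library, and members sat at about the level of bins 3 and 4. Not all such genes were lower in members. S100a6 in Jumonji and Ccr2 in Renilla had log2 ratios, members over other cells, of 0.47 and 0.42. Of the measured monocyte and macrophage list 12 of 14 genes lay below 0 and 2 above in Jumonji. In Renilla 7 of 11 lay below 0 and 4 above. Csf2rb stayed between 100.1 and 131 CPM over the Jumonji bins and between 30.004 and 40.98 CPM over the Renilla bins, with no overlap between libraries.

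**Figure D5:**
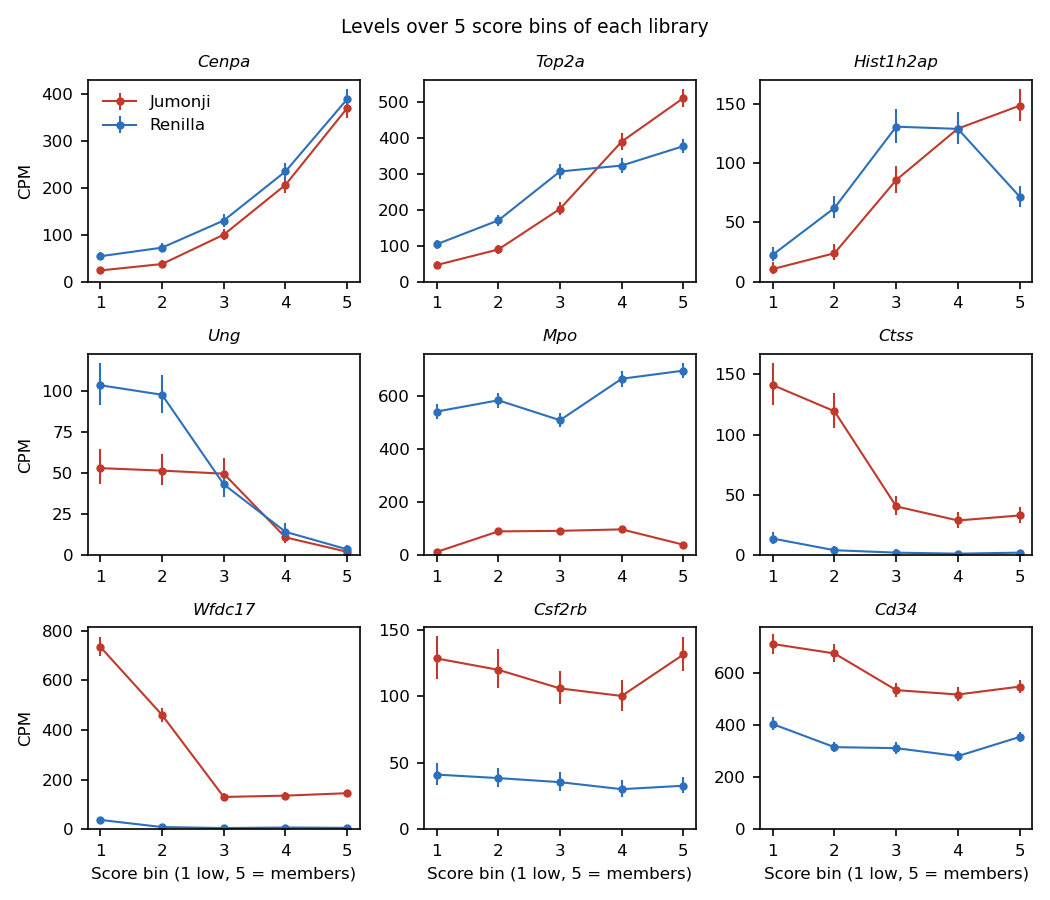
CPM (y axes) of 9 genes over 5 bins of cells from low to high score (x axes, bin 5 is the members), with Jumonji in red, Renilla in blue and 95% Poisson counting intervals as bars. Cenpa and Top2a climb to the members, Ung declines, and Mpo, Ctss, Wfdc17, Csf2rb and Cd34 differ between libraries in every bin.

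Among the members themselves, cells of higher score (57 Jumonji, 60 Renilla) were set against those of lower score (58 Jumonji, 61 Renilla). Outside the score genes, Aurka had 134 CPM in the upper and 83.9 CPM in the lower Jumonji members, and 142 and 97.4 CPM in those of Renilla. Cdc25b had 40.5 and 21.1 CPM in Jumonji, and 25.5 and 10.8 CPM in Renilla. Both genes of mitotic entry were thus higher in the upper members of each library. Rrm1, a ribonucleotide reductase subunit of S phase, had 75.3 CPM in the upper and 116 CPM in the lower Jumonji members, a log2 ratio of -0.63 (-0.97 to -0.29), and 84.9 and 112 CPM in those of Renilla (-0.40, -0.72 to -0.09). Slbp, the histone stem-loop binding protein of S phase, had 103 and 165 CPM in Jumonji (-0.68, -0.97 to -0.39), and 79.04 and 77.7 CPM in Renilla (0.03, -0.32 to 0.38).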

How the data were processed

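The deposited values are raw UMI counts per gene and cell barcode, made by the authors with the 10x Chromium 3′ kit (version 2 chemistry), per the labels' protocols. The submitters' processing notes name the build mm10 and Cell Ranger 1.3.1, and the annotation release is not given in the sources used here. From these counts, cells were filtered and scored as stated, UMIs were summed over the cells of each of 4 cell groups and divided by the group's total (CPM). The log2 ratio carries the exact conditional binomial 95% interval of a ratio of Poisson counts, and the difference of ratios a normal interval. A group at 0 was set to a floor of 3 counts over the group. No test was made, since each condition had 1 library and cells are not replicates. Summed depth was 3236894 UMIs in Jumonji members, 9572767 in other Jumonji cells, 3558516 in Renilla members and 10860227 in other Renilla cells.

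The members and the 31 gene lists were chosen with earlier results of these data known. Named genes were the 8 score genes, 17 fixed genes, up to 4 higher and 4 lower genes of each list, the 15 higher and 15 lower genes of each contrast ranked by the bound of the interval nearer to 0, and the 10 higher and 10 lower by the difference of ratios. Msantd4 and the genes whose promoters are printed were chosen after their values were seen. Alternatives were a top 10% and top 30%, thinning to 10000 UMIs (without shallower cells, members chosen again), minimum counts of 50, 200 and 1, a 2-fold limit, median ratio scaling, other member choices, no doublets and other mitochondrial limits. Coordinates are 1-based from GENCODE M21. The ratio and its interval were tested on simulated data drawn from the same Poisson model as the interval. That simulation leaves out UMIs that gather in single cells, so it does not check the intervals for them. Python 3.11.15, numpy 2.4.6, scipy 1.17.1, pandas 2.3.3 and scanpy 1.11.5 were used.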

Additional observations from a re-analysis of the deposited data

Results flagged for a closer look

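For 11 genes the counting intervals put members above the other cells in 1 library and below them in the other, and the difference was not tested for lack of replicate libraries. All 11 stand among the 396 named genes, some of which were picked for a large difference of ratios between the libraries. No share over all 7129 genes measured in both libraries is given here. All values are log2 ratios of members over other cells. In Jumonji they were negative for Cd34 (-0.12), Hpgd (-0.39), Adam17 (-0.45), Ccr2 (-0.78) and Mpo (-0.96), and in Renilla the same genes had 0.12, 0.28, 0.42, 0.42 and 0.27. In Jumonji they were positive for Stmn1 (0.18), Stfa1 (0.20), Pilra (0.23), Gm5483 (0.37), 2810417H13Rik (0.42) and Hist1h2ap (1.09), and in Renilla the same genes had -0.23, -1.62, -0.78, -0.57, -0.31 and -0.29. Mpo was detected in 20 of the 115 Jumonji members.

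With the lowest 20% of cells by score left out of the other cells, Mpo had -1.20 in Jumonji and 0.25 in Renilla, and Ccr2 had -0.24 and 0.61. When the 60 other G2 and mitotic genes chose the members, Mpo had -1.18 and 0.20, while Hist1h2ap had 0.76 in Renilla and stayed above 0 in Jumonji, and in Jumonji and Renilla in turn 2810417H13Rik had 0.999 and 0.30, Stmn1 0.54 and 0.07, Gm5483 0.78 and 0.72, and Stfa1 0.21 and 0.17, so these 5 genes had no opposite directions under that choice. In Renilla members 1 cell held 59.0% of the 195 Gm5483 UMIs, and Gm5483 and Stfa1 are stefin genes with near-identical copies.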

How the results depend on the processing

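No paired analysis was possible because each condition had 1 library and the replicate numbers are only names. Of 555 values of named genes past the fold, 542 kept their direction under every alternative run. The minimum counts cannot change a ratio, and many named genes were picked for large ratios in these same data. The number kept was thus partly set in advance. Reversals in Renilla members over other cells came with the top 10% (S100a9 -5.50, Camp -4.21, Ngp -3.49) and without the cell of the largest neutrophil share in each group (S100a9 -1.25, Camp -2.09, Ngp -3.12), an alternative chosen after seeing the data. The same 2 settings turned Camp in Jumonji over Renilla members to 2.58 and 1.36. Thinning turned Cenpp in Jumonji (-0.14) and Cdkn1b (0.32) and Ppic (0.059) in Renilla. Choosing members by the other 60 genes turned Ccl6 in Jumonji (0.063), and in Renilla Cdkn2c (0.34), Clec4a2 (0.081), Cd33 (0.24), Fbxo5 (0.37) and Stfa1 (0.17). The cause was not tested.

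Counts of genes past the fold moved with the minimum and the fold, by construction. In the order Jumonji higher and lower, then Renilla higher and lower (members over other cells), then Jumonji over Renilla higher and lower in members, a minimum of 200 UMIs gave 198, 147, 229, 137, 366 and 267, and a minimum of 1 UMI gave 2806, 1247, 3261, 1190, 2592 and 2478, with 2871 and 2274 in the other cells. A 2-fold limit gave 120, 65, 87, 58, 238 and 98, with 377 and 102 in the other cells. A minimum of 50 UMIs moved 4 counts past 1.5 times: 523 higher and 496 lower in Jumonji, 454 lower in Renilla and 874 lower in Jumonji over Renilla members. Settings with fewer UMIs measured fewer genes. Between member groups, thinning gave 305 higher and 201 lower of 2883 genes, the top 10% gave 322 lower of 4045 and the split UMIs 311 lower of 3963, against 5890 genes in the main comparison. In Jumonji members the split UMIs gave 200 lower of 5562 genes, against 7419. At limits set for the top 10% and the top 30% the shares above a common score were 9.04% and 26.1% in Jumonji and 10.9% and 33.6% in Renilla.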

Other observations

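The 77 Jumonji and 43 Renilla barcodes left out by the cell filter included cells of high score: 14 of the 77 (18.2%, exact interval 10.3 to 28.6%) and 11 of the 43 (25.6%, 13.5 to 41.2%) lay at or above the members' limit of their library. Prg2, which encodes an eosinophil granule protein, had 54 UMIs in Jumonji members, of which 1 cell held 63.0%, and 3 UMIs in Renilla members. S100a9 had 719 CPM in the upper Jumonji members by score and 179.8 CPM in the lower ones, and 1 Jumonji member held 240 of its 1433 UMIs.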
